A study of Homo sapiens with 16 samples.

Results

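IGFBP3, IGFBP4, IGFBP6, IGF1R, IGF2R, INSR, IRS1 and IRS2 are 8 genes that carry insulin and insulin-like growth factor (IGF) signals or hold the factors back, and their mRNA was followed in bronchial epithelial cells given a Drosera extract. They were taken by symbol from 18632 symbols measured at 3 h and 24570 at 6 h, and each of the 8 had 1 gene ID in both tables. The cells were 16HBE, 1 immortalised line of human bronchial epithelium, kept for the treatment in medium with 2% serum and antibiotics in every group. D. rotundifolia 3× (Dro), a dilution of an ethanolic extract of the plant, was added for 3 h or 6 h. Ctrl cultures received the same vehicle without the plant for the same time. Each of the 4 groups (Ctrl and Dro at 3 h, Ctrl and Dro at 6 h) had 4 libraries, numbered 1 to 4, which makes 16 in all.

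IGF1 and IGF2 act through IGF1R, insulin through INSR, and both receptors are tyrosine kinases that phosphorylate the insulin receptor substrates IRS1 and IRS2, which recruit PI3K and lead to AKT, mTORC1 and the FOXO factors. IGF2R, also known as the mannose 6-phosphate receptor, takes IGF2 into lysosomes and does not signal as a kinase. The secreted binding proteins hold IGFs in the extracellular fluid: IGFBP3 is the main carrier in serum, IGFBP4 restrains IGF action until the protease PAPPA cleaves it, and IGFBP6 prefers IGF2. In airway epithelium the pathway is known for its part in growth and repair.

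TPM (a level relative to all transcripts of a library, corrected for transcript length) summed to 999181 to 999300 per library at 3 h and 997870 to 998397 at 6 h, and the authors' mean normalised counts summed to 31902241 and 30205203. Epithelial genes were strongly represented: 7 of 8 epithelial markers had a mean of at least 1 TPM in each group and their sum was 9430 to 13400 TPM. Markers of fibroblasts summed to 10.2 to 17.3 TPM, of endothelial cells to 3.18 to 6.28 TPM, and of leukocytes to 0.999 to 2.12 TPM. A mean of at least 1 TPM was reached by 1 to 2 of 6 fibroblast, 1 of 5 endothelial and 0 of 5 leukocyte markers. The 3 markers of ciliated cells summed to 0.134 to 1.88 TPM, while the secretory cell genes SCGB1A1, MUC5AC and MUC5B were not listed. In bulk RNA of this kind, fewer cells with a transcript and less transcript per cell cannot be told apart. The tables of the 3 h and 6 h experiments hold different sets of gene IDs: 1043 IDs of the 3 h table, with 5.68% of its TPM, are absent from GENCODE 44, against 115 IDs with 0.15% at 6 h.

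In limma fits without the replicate number, 3 of the 8 genes had an unadjusted p under 0.05 at 3 h or 6 h. Their promoters are shown. Each runs 5′ to 3′ from 250 bases before the RefSeq start of the gene to 50 after it, and capitals mark GCGTG or its reverse complement CACGC, the core letters that the aryl hydrocarbon receptor binds. They lie at chr7:45921223-45921522 on the minus strand (IGFBP3), chr15:98648289-98648588 on the plus strand (IGF1R) and chr13:109786534-109786833 on the minus strand (IRS2), all on GRCh38.p14.
IGFBP3: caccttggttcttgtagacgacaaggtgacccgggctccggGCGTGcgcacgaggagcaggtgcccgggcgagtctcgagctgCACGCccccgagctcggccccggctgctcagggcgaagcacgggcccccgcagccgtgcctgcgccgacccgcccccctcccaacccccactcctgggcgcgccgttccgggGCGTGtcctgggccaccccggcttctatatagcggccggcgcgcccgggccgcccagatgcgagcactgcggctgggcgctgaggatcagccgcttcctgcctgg
IGF1R: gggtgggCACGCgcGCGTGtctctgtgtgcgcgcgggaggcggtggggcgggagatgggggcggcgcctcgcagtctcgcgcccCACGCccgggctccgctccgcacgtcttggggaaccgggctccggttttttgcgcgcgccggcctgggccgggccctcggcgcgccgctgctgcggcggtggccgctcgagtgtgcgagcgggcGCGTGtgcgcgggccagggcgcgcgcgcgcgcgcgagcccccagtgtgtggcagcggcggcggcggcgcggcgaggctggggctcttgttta
IRS2: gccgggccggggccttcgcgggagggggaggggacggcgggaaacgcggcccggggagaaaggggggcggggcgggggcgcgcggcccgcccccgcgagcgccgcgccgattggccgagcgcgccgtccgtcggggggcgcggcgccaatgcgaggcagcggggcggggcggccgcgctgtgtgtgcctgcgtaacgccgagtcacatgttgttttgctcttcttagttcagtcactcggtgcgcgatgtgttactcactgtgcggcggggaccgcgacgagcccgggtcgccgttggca

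GCGTG was found 3 times in the IGFBP3 promoter, 4 times in that of IGF1R, 1 time in that of IRS1 and not in the other 5, where both strands were searched; 36.5% of 35116 promoters of this length hold it. ACGTG, the core that hypoxia-inducible factors bind, was found 6 times in the IGF2R promoter (a CACGTG counts on each strand), 2 times in that of IRS1 and 1 time in that of IGF1R, and is held by 21.4% of promoters. TGTTTAC, a core of FOXO sites, was found 1 time in IGFBP6 and in none of the others (3.42% of promoters), and TGACTCA, the AP-1 site, in none of the 8 (4.95%). All 8 promoters had more G and C than the median of 58.7%, from 61.7% in IGFBP6 to 79.7% in IGF1R, and IGF1R held 55 CpG, more than 99.6% of promoters. The window of IGFBP3 lies inside the longer gene span that GENCODE 44 gives (chromosome 7, 45912245 to 45921874, minus strand). IGF1R spans 98648539 to 98964530 on chromosome 15 (plus strand), and IRS2 spans 109752695 to 109786583 on chromosome 13 (minus strand).

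The binding protein IGFBP3 and the receptor IGF1R led the 8 genes in TPM. In Ctrl at 3 h the means were 271 TPM for IGFBP3, 118 for IGF1R, 56.3 for IGFBP6, 34.7 for IGFBP4, 33.5 for IGF2R, 4.35 for IRS2, 2.67 for INSR and 0.827 for IRS1. IGFBP4 and IGF2R overlapped over their libraries, and the other neighbours in that order did not, although the lowest IGFBP3 value (127 TPM) and the highest of IGF1R (124 TPM) lay close. At 6 h IGF2R (49.1 TPM) stood above IGFBP4 (31.6 TPM) and INSR (4.97 TPM) beside IRS2 (4.88 TPM). There IGFBP6 overlapped with IGF2R and INSR with IRS2. Only 3.30% of symbols at 3 h and 2.47% at 6 h had a higher Ctrl mean than IGFBP3, and 7.78% and 7.36% had a higher one than IGF1R. IRS1 stood lower, with 70.7% and 60.2% of symbols above it. In the authors' mean normalised counts, taken over both groups and not divided by transcript length, IGF2R stood above IGF1R. These counts were 7100 for IGF2R and 6182 for IGF1R at 3 h, and 8134 and 5002 at 6 h.

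**Figure D1:**
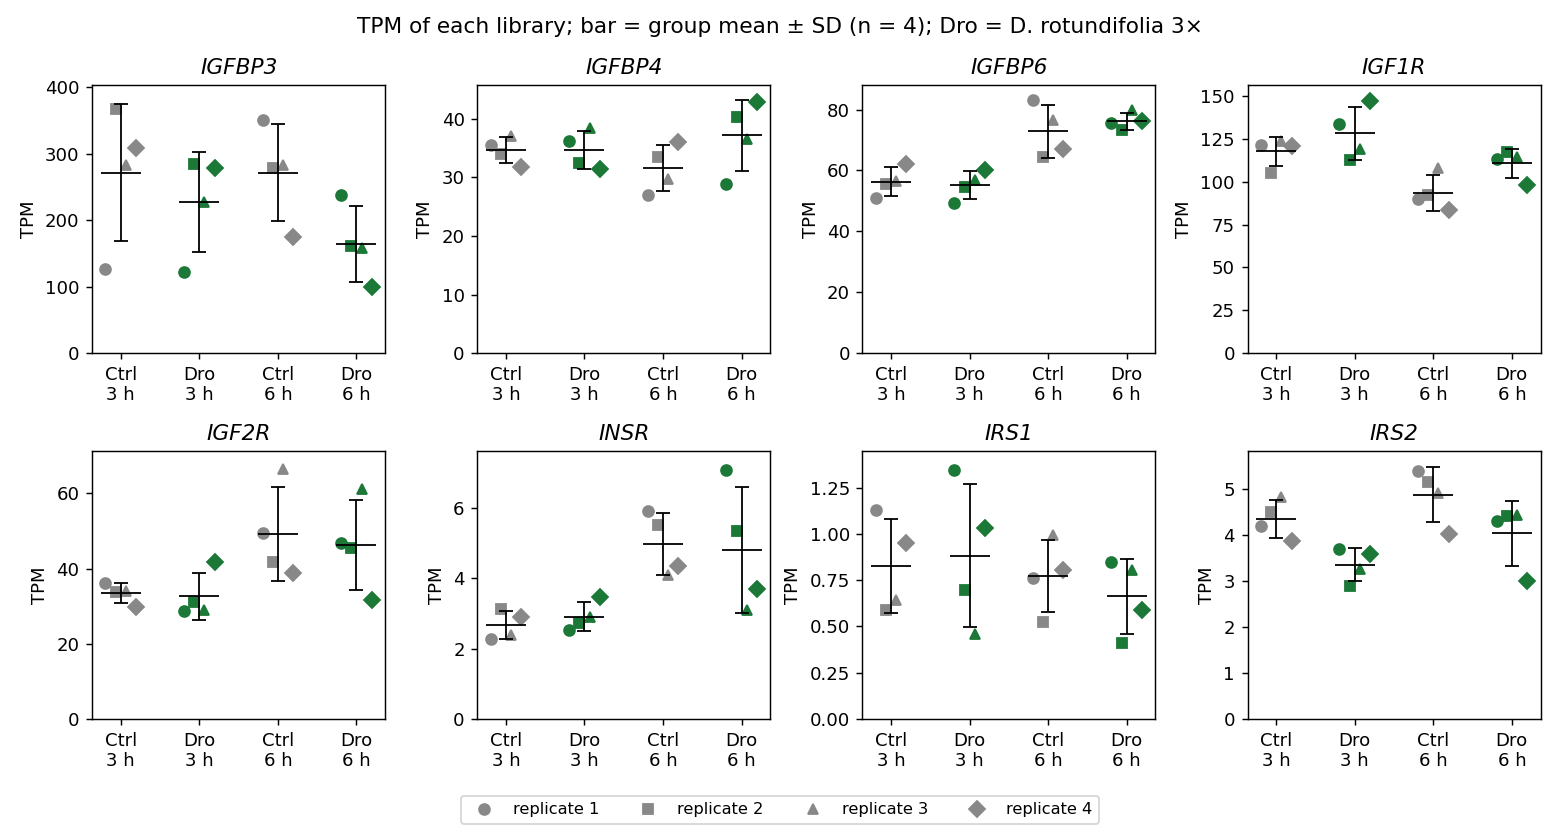
TPM of the 8 genes (y axis, linear, from 0) in Ctrl (grey) and Dro (green) libraries at 3 h and 6 h (x axis); each symbol is 1 library, its shape the replicate number, and the bars give the group mean ± SD (n = 4). IGFBP3 spreads widely in every group, from 127 to 368 TPM in Ctrl at 3 h, and at 6 h 3 of the 4 Dro libraries lie below the lowest Ctrl library.

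After 3 h none of the 8 genes passed the test, and IRS2 and IGFBP3 were the genes whose TPM was lower with the extract in every same-numbered pair. Of the 8, 7 reached a mean of 1 TPM and were tested. Without a block limma called 0 of 7, against 0 of 12919 genes tested (0%). At an unadjusted p under 0.05 there was 1 of 7, IRS2, against 2.41% of all genes. The 2 of 7 with 4 of 4 pairs lower stand beside 5.95% of all genes, and 0 of 7 were higher in all pairs, against 9.57%. With the pairs as a block, limma called 0 of 7 genes, against 0.00774% of all, and 2 of 7 (IGFBP3 and IRS2) had an unadjusted p under 0.05, against 6.87%. The median log2 change was −0.029 over the 7 genes and 0.015 over all genes.

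IRS2, the adaptor that relays insulin and IGF1 signals to PI3K, had 4.20, 4.49, 4.83 and 3.87 TPM in Ctrl libraries 1 to 4 at 3 h. In the Dro libraries it had 3.69, 2.89, 3.25 and 3.58 TPM. Every Dro value lay below every Ctrl value, as in 0.503% of all genes tested; in 1.02% every Dro value lay above. The log2 change was −0.30 (standard error 0.099, limma adjusted p = 1). With the pairs as a block the limma adjusted p was 0.681. In TPM the groups had 4.35 ± 0.412 and 3.35 ± 0.361 (SD, n = 4).

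IGFBP3 differed more between libraries than between the groups at 3 h, and was lower with the extract in every same-numbered pair. Ctrl libraries 1 to 4 had 127, 368, 283 and 308 TPM. Dro libraries 1 to 4 had 122, 284, 227 and 279 TPM. Both libraries numbered 1 were low and the groups overlapped over nearly their whole range. The log2 change of −0.22 (standard error 0.37, limma adjusted p = 1) was 0.05 without Dro library 1, −0.04 without Ctrl library 2, −0.13 without Ctrl library 4, −0.55 without Ctrl library 1, −0.35 without Dro library 2, −0.34 without Dro library 4, and −0.28 without both libraries numbered 1. These fits had no block, so leaving out 1 library kept its same-numbered partner in. The ratio of Dro to Ctrl TPM in pairs 1 to 4 was 0.962, 0.771, 0.801 and 0.905. With the pairs as a block the standard error was 0.061 and the interval −0.38 to −0.07. In that fit the unadjusted limma p was 0.0134 and the limma adjusted p 0.634.

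The other 5 genes tested at 3 h had log2 changes between −0.05 (IGF2R) and 0.12 (IGF1R). IGF1R had 122, 105, 124 and 121 TPM in Ctrl and 134, 113, 119 and 147 TPM with the extract. Its groups overlapped (log2 change 0.12, standard error 0.092, limma adjusted p = 1). IGFBP4 had 31.8 to 37.1 TPM in Ctrl and 31.4 to 38.5 TPM in Dro, and IGFBP6 had 50.9 to 62.2 and 49.4 to 60.2 TPM. For these binding proteins the interval of the log2 change ran from −0.19 to 0.19 (IGFBP4) and from −0.22 to 0.16 (IGFBP6). IGF2R had 29.9 to 36.1 TPM in Ctrl and 28.8 to 41.8 TPM with the extract, and INSR had 2.27 to 3.12 and 2.52 to 3.47 TPM. With the pairs as a block the limma adjusted p of the 5 genes ran from 0.779 (IGF1R) to 0.995 (IGFBP4). IRS1, under the filter, had 1.13, 0.588, 0.642 and 0.949 TPM in Ctrl and 1.35, 0.699, 0.458 and 1.03 TPM in Dro, groups that overlapped.

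After 6 h the mean TPM of IGFBP3 was 39.6% lower with the extract, IGF1R had a higher mean and IRS2 a lower one. Without a term for the replicate number no gene of the 8 passed the test, and with the number as a block IGFBP3 did; whether the numbers mark pairs at 6 h is not settled by the labels or by the data. Without the block limma called 0 of 7 genes tested, against 16 of 14179 (0.113%), all of those higher. IGFBP3 and IGF1R had an unadjusted p under 0.05, which is 2 of 7, against 8.03% of all genes. The median log2 change was −0.079 over the 7 genes and 0.0052 over all genes. No member had groups that did not overlap, against 3.43% of all genes with every Dro library higher and 1.65% with every Dro library lower. Between same-numbered libraries, IGFBP3 and IRS2 were lower with the extract in 4 of 4 (2 of 7 genes, against 9.94% of all genes) and IGFBP4 and IGF1R higher in 4 of 4 (2 of 7, against 13.1%). With the block limma called 1 of 7 genes, IGFBP3, against 0.282% of all genes (0.0141% lower), and these 4 had an unadjusted p under 0.05, against 13.1% of all genes.

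IGFBP3 in Ctrl libraries 1 to 4 at 6 h was 351, 278, 283 and 175 TPM. In Dro libraries 1 to 4 it was 238, 161, 158 and 98.9 TPM. The Dro libraries 2, 3 and 4 lay below the lowest Ctrl library, number 4, while Dro library 1 lay between that and the rest, so the groups overlapped. The means were 272 ± 72.6 TPM and 164 ± 56.9 TPM (SD, n = 4). The log2 change was −0.75 (standard error 0.28, interval −1.39 to −0.10, limma adjusted p = 0.556), and it ran from −0.95 to −0.53 as each library was left out. Once the replicate number was added as a block, the same change had a standard error of 0.057 and an interval of −0.89 to −0.60 (limma adjusted p = 0.0341). The ratio of Dro to Ctrl TPM between same-numbered libraries was 0.677, 0.580, 0.560 and 0.565 for numbers 1 to 4. The authors' mean normalised count for IGFBP3 in this table was 18547.

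IGFBP3 made up a large share of the TPM of IGFBP3, IGFBP4 and IGFBP6 together. Its share of this sum was 62.9% to 76.1% over the Ctrl libraries at 6 h and 45.4% to 69.5% over the Dro libraries, ranges that overlap. At 3 h the shares were 59.4% to 80.4% and 58.7% to 76.5%. The sum itself was 278 to 461 TPM in Ctrl and 218 to 342 TPM in Dro at 6 h.

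**Figure D2:**
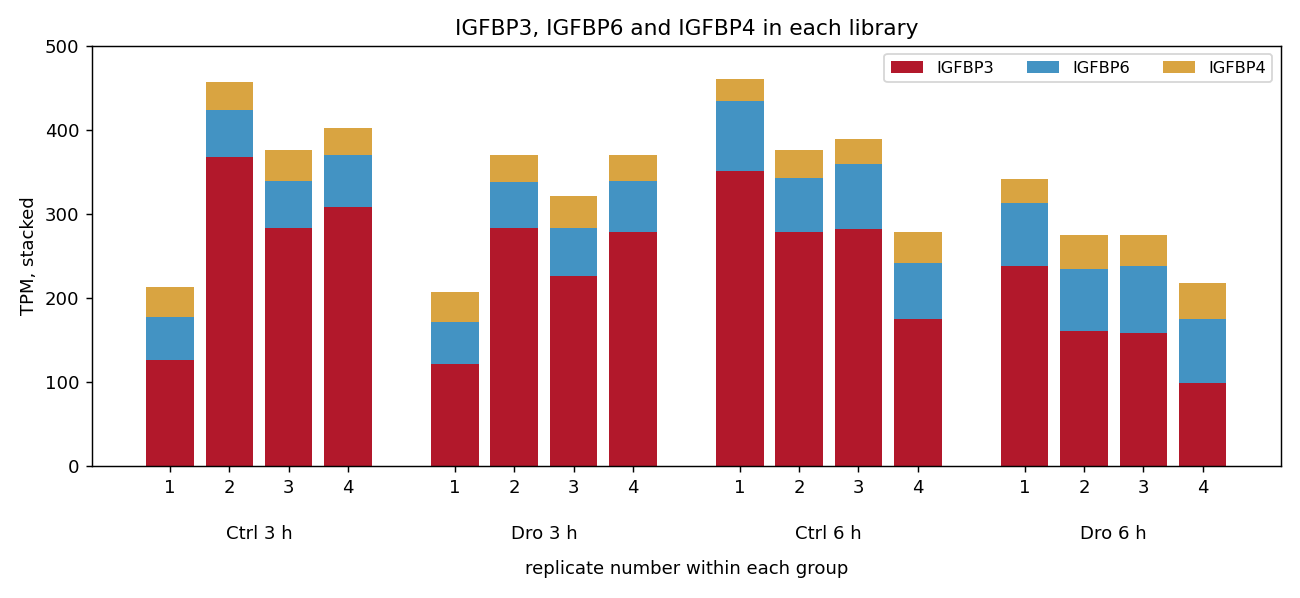
TPM of IGFBP3 (red), IGFBP6 (blue) and IGFBP4 (yellow), stacked from 0 (y axis), in each of the 16 libraries (x axis, replicate number within each group). IGFBP6 spans 49.4 to 83.0 TPM and IGFBP4 27.1 to 42.9 TPM over the bars, and IGFBP3 is 98.9 TPM in the Dro library 4 at 6 h and 368 TPM in the Ctrl library 2 at 3 h.

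IGFBP4 and IGFBP6 had higher means with the extract at 6 h without passing the test. IGFBP4 had 27.1, 33.5, 29.8 and 36.0 TPM in Ctrl and 29.0, 40.3, 36.6 and 42.9 TPM in Dro. Dro libraries 2, 3 and 4 exceeded the highest Ctrl value (log2 change 0.22, standard error 0.13, limma adjusted p = 0.721). With the block the standard error for IGFBP4 was 0.052 and the limma adjusted p 0.217. IGFBP6 had 83.0, 64.4, 76.7 and 67.1 TPM in Ctrl and 75.4, 73.1, 80.0 and 76.1 TPM in Dro, with overlapping groups (log2 change 0.07, limma adjusted p = 0.867, and 0.684 with the block).

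Of the receptors, IGF1R had a higher mean at 6 h in Dro than in Ctrl, and INSR and IGF2R differed less than their spread. IGF1R had 90.2, 92.1, 108 and 83.6 TPM in Ctrl. In Dro it had 113, 117, 114 and 97.8 TPM. Dro libraries 1, 2 and 3 lay above the highest Ctrl library, and Dro library 4 lay among the Ctrl values. The log2 change was 0.24 (standard error 0.090, interval 0.04 to 0.45, limma adjusted p = 0.534). With the block the standard error for IGF1R was 0.056 and the limma adjusted p 0.216. IGF2R had 38.7 to 66.5 TPM in Ctrl and 31.7 to 61.1 TPM in Dro, and its log2 change of −0.09 had an interval from −0.59 to 0.41. INSR had 5.92, 5.52, 4.09 and 4.36 TPM in Ctrl and 7.09, 5.34, 3.10 and 3.70 TPM in Dro. It varied more between Dro libraries than between groups (log2 change −0.08, interval −0.57 to 0.41). With the block the limma adjusted p was 0.631 for IGF2R and 0.781 for INSR.

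IRS2 had 5.40, 5.15, 4.92 and 4.03 TPM in Ctrl and 4.30, 4.41, 4.44 and 2.99 TPM in Dro at 6 h. Library 4 was the lowest of both groups, and the groups overlapped because its Ctrl value lay under 3 Dro values. The log2 change was −0.23 (standard error 0.13, limma adjusted p = 0.707). With the block the standard error for IRS2 was 0.0725 and the limma adjusted p 0.314. IRS1, a related substrate of both receptors, had 0.760, 0.524, 0.995 and 0.807 TPM in Ctrl and 0.849, 0.413, 0.802 and 0.588 TPM in Dro, and was under the filter. The TPM of IRS2 was 4.95 to 9.84 times that of IRS1 in the Ctrl libraries and 5.06 to 10.7 times in the Dro libraries.

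**Figure D3:**
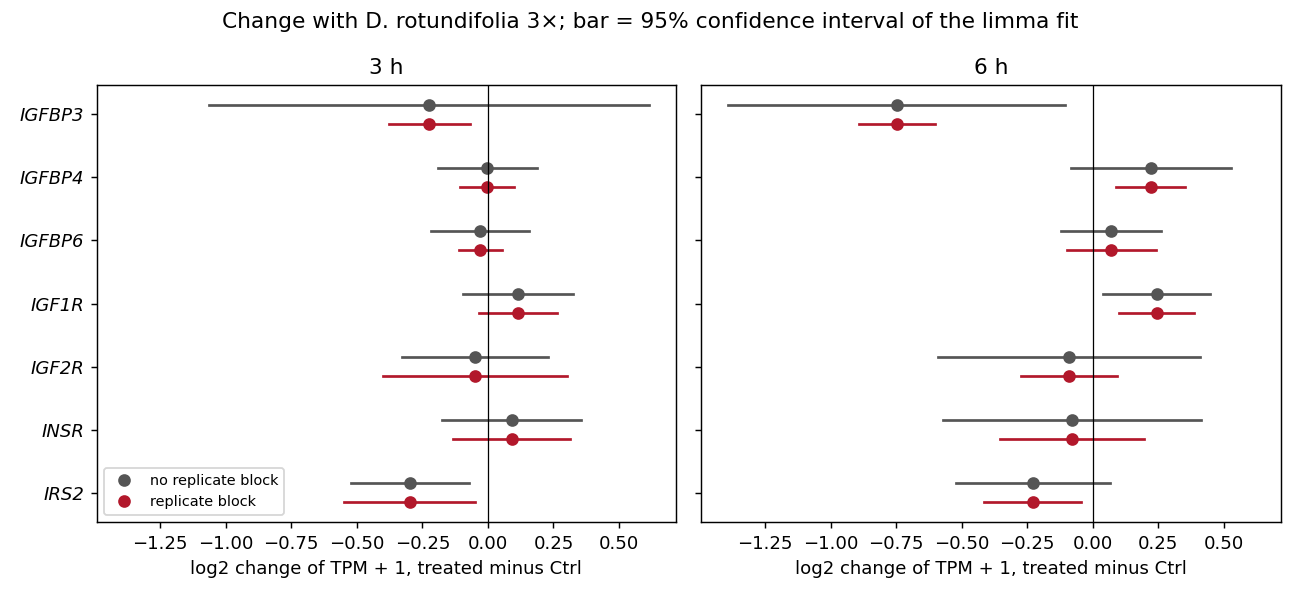
Log2 change of TPM + 1, treated minus Ctrl (x axis), for the 7 genes tested (y axis) at 3 h (left) and 6 h (right); dots are limma estimates and lines their 95% confidence intervals, without a block (grey) and with the replicate number as a block (red). IGFBP3 has the lowest estimate of the 7 at 6 h, −0.75, with an interval of −1.39 to −0.10 without the block and −0.89 to −0.60 with it.

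No difference between the change at 6 h and the change at 3 h passed the test. limma called 0 of 7 genes (the adjusted p was 0.999 for each), none had an unadjusted p under 0.05, and 1 of 12623 genes was called (0.00792%), with 3.49% at an unadjusted p under 0.05. For IGFBP3 the change at 6 h minus that at 3 h was −0.53 on the log2 scale (standard error 0.50), and −0.19 to −0.80 as each library was left out. With the replicate number as a block its limma adjusted p was 0.0709, above the threshold of 0.05, in a fit that called 32 genes.

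In Ctrl, 3 of the 7 genes differed between the times. INSR rose from 2.67 ± 0.404 to 4.97 ± 0.888 TPM (SD, n = 4; log2 change 0.70, limma adjusted p = 0.0141) and IGFBP6 from 56.3 ± 4.64 to 72.8 ± 8.62 TPM (SD, n = 4; log2 change 0.36, limma adjusted p = 0.00838). The TPM of IGF1R fell from 118 ± 8.40 to 93.4 ± 10.3 (SD, n = 4; log2 change −0.34, limma adjusted p = 0.0222). Of 12623 genes, 19.5% were called, 9.61% higher and 9.93% lower at 6 h, so 2 of 7 higher and 1 of 7 lower stand beside those shares. Time, experiment and table cannot be told apart, since each time was an experiment and a table of its own. The tables also hold different gene IDs: those absent from GENCODE 44 held 5.68% of TPM at 3 h and 0.15% at 6 h. In the authors' mean counts per table, as a share of all counts and over both groups, INSR was 1.41 times as high at 6 h where TPM gave 1.75 times, and IGF2R 1.21 against 1.44 times, while IGFBP6 (1.31 against 1.34) was closer. The call for IGF1R was lost without any 1 of 6 Ctrl libraries (limma adjusted p from 0.0516 to 0.0621 without Ctrl libraries 1, 3 or 4 of 3 h or 1, 2 or 4 of 6 h), and without all libraries numbered 1 those for IGF1R (0.127) and IGFBP6 (0.0575) were lost. The TPM of IGF1R was 33.8 to 53.5 times that of INSR in Ctrl at 3 h and 15.2 to 26.4 times at 6 h. The authors' mean counts, over both groups, were 6182 for IGF1R and 392 for INSR at 3 h, and 5002 and 525 at 6 h.

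The pathway around the 8 genes was followed in 57 further genes in 10 lists, of which 43 were tested at 3 h and 44 at 6 h. limma called 0 of 43 and 0 of 44, against 0% and 0.113% of all genes. With a block for the replicate number it called 0 of 43 and 1 of 44 (STC2), against 0.00774% and 0.282% of all genes. The median log2 change of the pathway genes tested was 0.032 at 3 h and 0.024 at 6 h, beside 0.015 and 0.0052 over all genes. No ligand gene was tested: IGF1 had group means of 0.00473 to 0.0221 TPM, IGF2 had 0.0670 to 0.136 TPM, and INS was not listed. Among other binding proteins, IGFBP2 had group means of 8.15 to 10.1 TPM and IGFBP7, a weak IGF binder, of 2.36 to 4.03 TPM, with log2 changes of 0.18 and 0.02 at 3 h and 0.02 and −0.08 at 6 h. IGFBP5 had 0.0738 to 0.144 TPM, IGFBPL1 0.0592 to 0.109 TPM, IGFALS 0.0153 and 0.0426 TPM at 3 h alone, and IGFBP1 was not listed. PAPPA, the protease for IGFBP4, had 0.0412 to 0.133 TPM.

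STC2, which inhibits PAPPA, was the pathway gene with the smallest p at 6 h. It had 20.6, 24.5, 27.6 and 25.2 TPM in Ctrl libraries 1 to 4 and 32.3, 41.4, 48.5 and 46.7 TPM in Dro. Every Dro library lay above every Ctrl library (log2 change 0.75, standard error 0.14, limma adjusted p = 0.134), as in 3.43% of all genes. With the block its standard error was 0.056 and the limma adjusted p 0.0341. At 3 h STC2 had 60.7, 27.5, 31.7 and 30.6 TPM in Ctrl and 73.0, 29.9, 37.5 and 30.4 TPM in Dro, with both libraries numbered 1 apart from the rest. Its relative STC1 had 10.7, 12.1, 12.1 and 4.04 TPM in Ctrl and 8.75, 11.4, 11.3 and 2.87 TPM in Dro at 6 h (log2 change −0.20, standard error 0.44).

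Downstream of the receptors limma called no tested gene at 6 h, without or with the block. Log2 changes there ran from −0.14 to 0.31, beside 0.24 for IGF1R. Of the 8 adaptors tested, 4 had a higher mean and 4 a lower one (median −0.0031). Of these, SHC1, which couples receptors to RAS, had a log2 change of 0.18 (limma adjusted p = 0.608), and SH2B2 of 0.13. Of 10 PI3K and AKT genes, 6 were higher and 4 lower (median 0.050), with log2 changes of 0.11 for the regulatory subunit PIK3R2 and 0.07 for the kinase AKT1. The median over all genes was 0.0052, and the share of all genes with a higher mean was not counted. The 8 inhibitors had 7 higher means and a median of 0.13, and limma called 0 of them. Of these, SOCS3, a feedback inhibitor of receptor signalling, had 10.8 to 13.1 TPM in Ctrl and 11.5 to 15.1 TPM in Dro (log2 change 0.21, limma adjusted p = 0.651). TRIB3, which binds AKT, had 25.8 to 32.3 and 27.4 to 44.9 TPM (log2 change 0.31, limma adjusted p = 0.665). Both were higher in 4 of 4 same-numbered libraries, as were 13.1% of all genes. With the block the limma adjusted p was 0.304 for SOCS3 and 0.239 for TRIB3. The 7 mTORC1 genes had 4 higher means and a median of 0.019, with −0.08 for the activator RHEB and 0.12 for TSC2, which restrains RHEB. Both FOXO genes tested had lower means (FOXO3 −0.03 and FOXO4 −0.04), as had IGF2BP2 (−0.05) and IGF2BP3 (−0.04), which bind IGF2 mRNA. IGF2BP1, of the same list, had a higher mean (0.03). Of other receptors, TMEM219, described as a receptor for IGFBP3, had a log2 change of 0.11, and LRP1, a scavenger receptor, of −0.23. FOXO1, chosen after its values were seen and under the filter, had 2.57, 3.23, 0.230 and 0.224 TPM in Dro libraries 1 to 4 at 6 h, against 0.262 to 0.295 TPM in Ctrl.

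**Figure D4:**
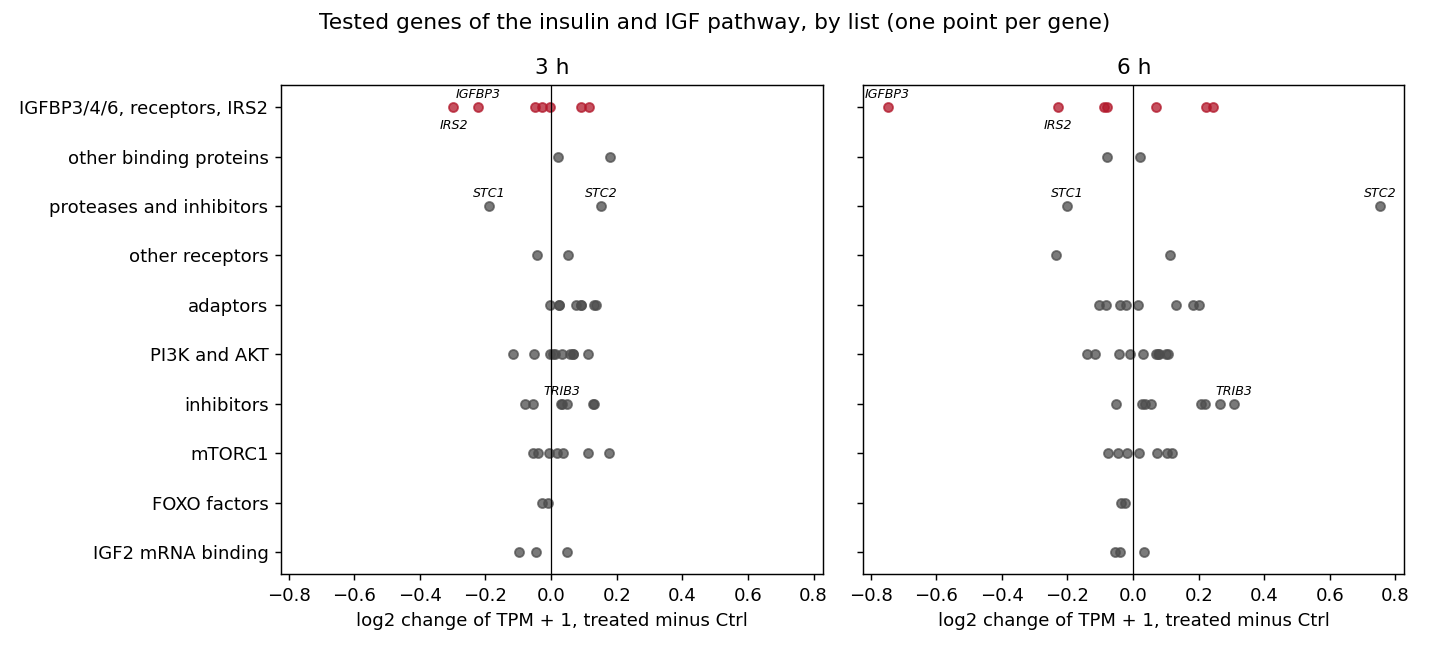
Log2 change of TPM + 1, treated minus Ctrl (x axis), of each tested gene of the pathway by list (y axis; the 7 tested of the 8 genes in red, the others in grey) at 3 h (left) and 6 h (right). At 6 h IGFBP3 (−0.75) and STC2 (0.75) stand at opposite ends; neither passed the test without the replicate block and both did with it.

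Between libraries, with the mean of each time removed, IGFBP3 and IGFBP4 moved in opposite directions. Pearson's correlation of their log2(TPM + 1) over the 16 libraries was −0.723, with −0.455 over the 8 libraries at 3 h and −0.916 over the 8 at 6 h. IGFBP3 and IRS2 had 0.507, made up of 0.0605 at 3 h and 0.914 at 6 h, and IGFBP3 and INSR had 0.555. These correlations describe libraries that share treatments and experiments, and carry no test. Among 12617 symbols with a mean of at least 1 TPM, the profiles most like IGFBP3 were TMEM59 (0.961), the amino acid transporter SLC7A2 (0.954), the Notch coactivator MAML2 (0.953), the saposin precursor PSAP (0.930) and FAM114A1 (0.925). The most opposite were the transcription factor CEBPG (−0.949), the mitochondrial folate enzyme MTHFD2 (−0.938), the metalloprotease ADAM8 (−0.931), and KCNG1 and WDR74 (−0.928 each). For IRS2 the most alike were PRDX4 (0.898), DEPP1 (0.886), NDST1 (0.863), ADM (0.843) and ANKRD37 (0.842), and the most opposite CDK11B (−0.863), SLC25A28 (−0.834), TSPYL2 (−0.828), GABBR1 (−0.826) and ZNF354A (−0.823).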

How the data were processed

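Messenger RNA of 16HBE cells was prepared with a stranded poly(A) kit and sequenced from 1 end in 16 libraries, 4 in each of 4 groups. Per the labels and the methods of the study, the authors quantified transcripts with Salmon 0.13.1 and its GC-bias option against GENCODE 32 on GRCh38.p13, summed them to genes with tximport and discarded genes under 10 reads. They deposited a table for each time with 1 column per library, treated here as TPM, a length-corrected share of all transcripts. The header line labels the values lengthScaledTPM, while each column summed to between 997870 and 999300. The authors' mean normalised count per gene, a signal averaged over the libraries of a table, served only for depth and to set beside TPM. The authors' log2 fold changes and their errors, the score of their Wald test and their p-value columns, made with DESeq2 1.22.2, were not used.

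From the deposited TPM, 89 repeated rows of the 6 h table were dropped and TPM was summed by symbol. limma 3.58.1 in R 4.3.3 was fitted to log2(TPM + 1), keeping genes that averaged 1 TPM or more, with a trend of the spread on the mean. p-values are two-sided and were adjusted by Benjamini-Hochberg over every gene of a fit, with a threshold of 0.05. A fold change is on the log2(TPM + 1) scale, which understates the change of genes with low TPM. The script was tested on simulated data. Alternatives were the pseudocount (0.1 and 5), no filter on low values, gene IDs one by one, median-ratio scaling, no trend, the replicate number as a block, and each library or both libraries numbered 1 left out. TPM columns keep no read depth, and the labels do not say what separates the libraries of a group. The study describes 4 biological replicates at 3 h and a new series of 4 experiments for the later times; p-values measure the spread between these libraries.

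As a check of pairing, deviations from the group means were correlated between same-numbered libraries, and pairs required more than 0.1 throughout. The 4 correlations at 3 h were 0.187 to 0.469, and same-numbered libraries there were read as pairs. The main fit at 3 h still had no block, and the fit with the pairs as a block is given beside it. At 6 h 2 of 4 lay under the bound (0.0564 and 0.0973). Yet the study ran Ctrl and treated cultures in the same plates, and refers to paired statistics for its RT-qPCR time course. It does not tie the library numbers to plates or experiments. Whether the numbers mark pairs at 6 h is therefore unsettled, and the 7 genes tested are given there without and with the block. This was settled after fits with and without the block had been seen.

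The 8 genes, the 57 further pathway genes and the rules for naming were chosen with earlier results of these data known. Of each pathway list, genes past the threshold at either time were named, with all ligands and other binding proteins and up to 2 more with the smallest p at 6 h. Promoter sequences and their positions are from RefSeq (GRCh38.p14), gene positions from GENCODE 44, on GRCh38.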

Additional observations from a re-analysis of the deposited data

Results flagged for a closer look

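In 2 of the 32 sets of 4 libraries examined (8 genes in 4 groups), 1 library lay far from the other 3, by the gap to its nearest neighbour as a share of the whole range. Chance alone flags about 1 in 20 such sets. In Ctrl at 3 h, IGF1R was 105 TPM in library 2 and 121 to 124 TPM in the others, a gap of 0.830 of the range. In Dro at 6 h, IRS2 was 2.99 TPM in library 4 and 4.30 to 4.44 TPM in the others, a gap of 0.903 of the range.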

How the results depend on the processing

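Other pseudocounts, median-ratio scaling and no trend changed no call of the treatment comparisons for the 8 genes. At 3 h the count of genes called was 0; it was 1 with gene IDs one by one, 1 with the replicate block, 2 without both libraries numbered 1, and 0 to 2 with single libraries left out. At 6 h the count was 16; it was 7 with no filter, 40 with the replicate block (38 higher, 2 lower; 0.282% of genes), 26 without both libraries numbered 1, and 4 (without Dro library 3) to 47 (without Dro library 1) with single libraries left out. For the difference between times the count of 1 was 2 with gene IDs one by one, 32 with the replicate block, and 1 to 2 with single libraries left out. For time in Ctrl the count of 2467 was 1493 without all libraries numbered 1 and 1672 to 2628 with single libraries left out; the block fit was not run there, since the number repeats across separate experiments. At 6 h the replicate block gave 1 call among the 8 genes, IGFBP3 (log2 change −0.75, standard error 0.057, limma adjusted p = 0.0341), and 1 in the pathway lists, STC2 (limma adjusted p = 0.0341). These calls rest on reading the 6 h numbers as pairs: the same-numbered correlations were 0.0564 to 0.204, and libraries numbered 3 and 4 correlated best with their own number in both groups, those numbered 1 and 2 in 1 group each. Without the block the adjusted p of IGFBP3 was 0.263 to 0.879 as single libraries were left out. With the block the adjusted p of the IGFBP3 difference between times was 0.0709. With single libraries left out and no block, IGFBP3 was −0.55 to 0.05 at 3 h, −0.95 to −0.53 at 6 h and −0.80 to −0.19 for the difference. The same-numbered partner of the library left out stayed in these fits. For time in Ctrl, IGF2R (limma adjusted p = 0.0654) gained a call in 3 of the fits with a library left out (0.0384 to 0.0480). The table of values keeps no read depth, and 4 libraries a group limit what could be detected.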
